A study of Mus musculus with 3 samples.

Results

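Binding of the transcription factors Tbr2 and Neurog2 was examined around 6 genes of the basic helix-loop-helix (bHLH) family: Neurog2, Neurog1, Neurod1, Neurod2, Neurod6 and Bhlhe22. The measurements were made by ChIP-seq, in which DNA bound by a protein is recovered with an antibody and sequenced, on cerebral cortices of wild-type C57BL/6 mouse embryos at E14.5. There was 1 library for each factor and 1 of input chromatin, all from cortical tissue, and peaks were analysed for the libraries of the factors only. Each gene was given 1 fixed window of the mm9 genome, 310 kb long for Neurog2, Neurod1, Neurod2 and Bhlhe22 and 300 kb long for Neurog1 and Neurod6. A peak belonged to a window when its midpoint lay inside. By this rule 41 of the 14539 Tbr2 peaks and 14 of the 2640 Neurog2 peaks were members, 55 of 17179 in all.

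The genes stand at successive steps of the production of excitatory cortical neurons. Neurog2 and Neurog1 are proneural factors of dividing progenitors, and Neurog2 is known to activate Neurod1. Tbr2, encoded by Eomes, marks intermediate progenitors, the cells through which radial glia give rise to many cortical neurons. Neurod1 acts as these cells become neurons, Neurod2 and Neurod6 act in the postmitotic neurons, and Bhlhe22 is a repressor of the related Olig branch that acts in cortical neurons. Proteins of the bHLH family bind as dimers to E-boxes, short DNA elements of the form CANNTG. Tbr2 binds T-box elements.

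Each peak comes with the number of sequence tags in it and with its fold change, both the authors' values. With 1 library per factor there is no replicate error, and no test was made. Library depth is unknown, so tags were ranked only within a list. The cells of the tissue were pooled, and a peak does not show in which cells a factor was bound. The position of each gene inside its window was not used here, since no mm9 annotation was at hand. In the RefSeq gene order of the build GRCm38.p6, the nearest protein-coding genes are Zgrf1 and Alpk1 for Neurog2, Tifab and Cxcl14 for Neurog1, Cerkl and Itprid2 for Neurod1, Adcyap1r1 and Itprid1 for Neurod6, and Cypt12 and Cyp7b1 for Bhlhe22. Neurod2 lies after Cdk12 and before the predicted gene Gm33099 and Ppp1r1b. A peak is therefore given by its window and is not assigned to a target gene. Where a peak or site is said to be at a gene, it lies in that gene's window.

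All 6 windows held at least 1 peak of each factor. Of all autosomal windows of 310 kb, 67.1% held a Tbr2 peak, 21.9% a Neurog2 peak, 18.8% a site of both and 20.9% at least 1 peak of each list. Together the windows, 1840 kb long, had 22.3 Tbr2 peaks per Mb against 6.00 per Mb over the autosomes, 3.72 times as many. For Neurog2 there were 7.61 peaks per Mb against 1.08, 7.07 times as many. Over the same total length, taken directly outside the windows on both sides, there were 28 Tbr2 and 7 Neurog2 peaks, or 15.2 and 3.80 per Mb. Of these, 8 Tbr2 and 5 Neurog2 peaks flanked Neurod6. Without that window the flanks had 20 Tbr2 peaks, 13.0 per Mb, still above the autosomal density, and 2 Neurog2 peaks, 1.30 per Mb, near it. This alternative was added after seeing the data. The density inside the windows was not reduced likewise and keeps the Neurog2 gene window, with 5 of the 14 Neurog2 peaks.

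The windows differed widely from each other. The Neurod6 window had the most Tbr2 peaks, 11, and the fewest Neurog2 peaks, 1. The Neurog2 gene window had 9 Tbr2 peaks and the most Neurog2 peaks, 5. The Neurod2 window had 8 Tbr2 and 2 Neurog2 peaks, and the Neurod1 and Bhlhe22 windows had 6 and 2 each. The Neurog1 window was the poorest in Tbr2, with 1 peak, but held 2 Neurog2 peaks.

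These counts were set beside all windows of equal length tiled along the 19 autosomes, 7720 of 310 kb and 7977 of 300 kb. The median window held 1 Tbr2 peak and no Neurog2 peak. As many Tbr2 peaks as at Neurod6 were present in 0.602% of windows, as many as at Neurog2 in 1.76%, as many as at Neurod2 in 2.75%, and as many as at Neurod1 or Bhlhe22 in 6.84%. At Neurog1 the Tbr2 count was ordinary, reached by 65.9% of windows. At least 5 Neurog2 peaks, as at the Neurog2 gene, were present in 0.531% of windows. At least 2 were present in 6.72% of windows of 310 kb and in 6.34% of those of 300 kb, and at least 1, as at Neurod6, in 21.6%. The tiling includes regions without binding, and 32.9% of the 310 kb windows held no Tbr2 peak.

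**Figure D1:**
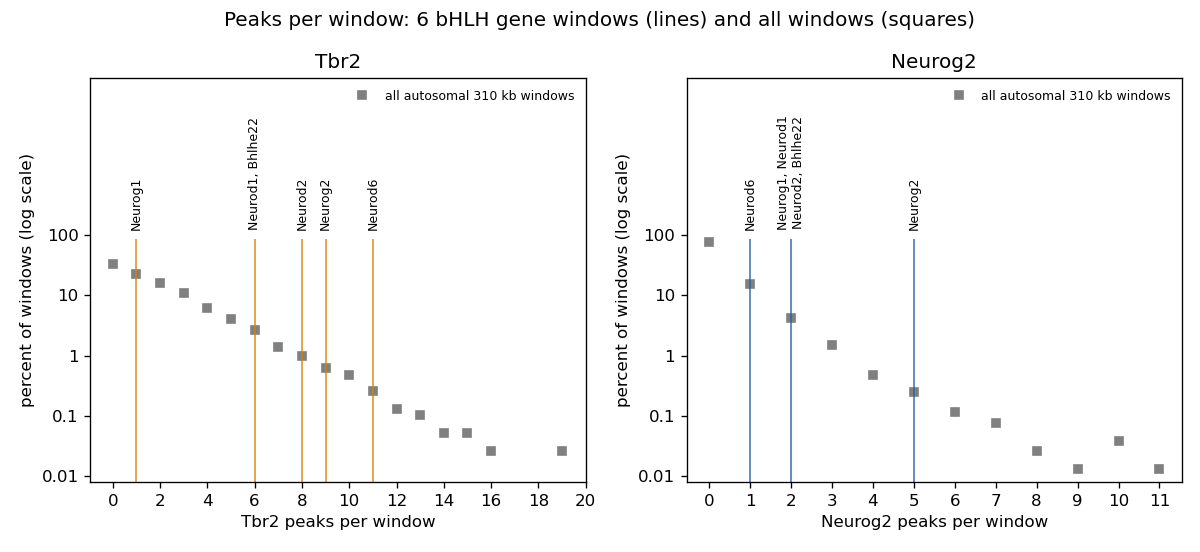
Peaks per window for Tbr2 (left) and Neurog2 (right). Squares give the percent of all autosomal 310 kb windows with each number of peaks, on a log scale, and vertical lines mark the 6 gene windows, of which Neurog1 and Neurod6 are 300 kb long; Neurod6 stands at 11 Tbr2 peaks and the Neurog2 gene at 5 Neurog2 peaks, both in the thin right tail.

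Windows rich in Tbr2 peaks also tended to hold Neurog2 peaks, so the Neurog2 counts were read a second time against windows with at least as many Tbr2 peaks. Of 136 windows with at least 9 Tbr2 peaks, the median held 2 Neurog2 peaks (interquartile range 1 to 3), and 16.2% held the 5 or more seen at the Neurog2 gene. Of 48 windows with at least 11 Tbr2 peaks, the median also held 2, and 35.4% held no more than the 1 of Neurod6. At Neurod1, Neurod2 and Bhlhe22 the count of 2 or more was common, at 44.3%, 55.2% and 44.3% of such windows. At Neurog1 it was less common: of 5257 windows with at least 1 Tbr2 peak, 9.45% held 2 or more Neurog2 peaks.

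The window of the Neurog2 gene held 5 peaks of the factor that this gene encodes, and their distances to the gene are not known here. The window, chr3:127180000-127490000, held 4 sites bound by both factors, a number reached by 0.583% of windows. The site with the most tags was chr3:127328057-127329557, 6.19 kb left of the window's centre, with 130 Tbr2 tags at a fold change of 16.2 and 64 Neurog2 tags at 13.1. By tags it ranked 607 among all Tbr2 peaks and 262 among all Neurog2 peaks. It was the only one of the 14 Neurog2 peaks in the strongest 10% of their list by tags, a limit that 10.3% of the list reached.

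Both next sites lay close together to the right of the centre. The Tbr2 peak at chr3:127348757-127349860 had 85 tags and a narrow Neurog2 peak of 160 bp with 18 tags, the fewest of all 14. The Tbr2 peak at chr3:127354459-127355685 had 71 tags, and its Neurog2 peak had 41 tags and the highest Neurog2 fold change of the 6 windows, 21.7, rank 102 of 2640. These neighbours thus had similar Tbr2 tags and unlike Neurog2 tags in total. The Neurog2 peaks also differed in called width, 160 and 297 bp, and per 100 bp they had 11.2 and 13.8 tags. The Tbr2 peaks had 7.70 and 5.79 tags per 100 bp. The last shared site, chr3:127448644-127449636, was 114 kb right of the centre, with 66 Tbr2 and 52 Neurog2 tags.

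The Neurog2 window also held a Neurog2 peak that no Tbr2 peak overlapped, chr3:127410104-127410318, with 24 tags and a fold change of 16.1. It lay between 2 weak Tbr2 peaks of 31 and 34 tags, with a gap of 1057 bp to the nearer. The other 3 unshared Tbr2 peaks of this window had 20, 25 and 60 tags. Tbr2 peaks without Neurog2 were all weaker in tags here than the 4 shared ones, which had 66 to 130.

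At Neurog1, a close relative of Neurog2 that is also expressed in progenitors, there was 1 Tbr2 peak and there were 2 Neurog2 peaks. The window, chr13:56200000-56500000, had 1 shared site at chr13:56300591-56301425, 49.0 kb left of the centre, with 49 Tbr2 and 25 Neurog2 tags. A Neurog2 peak of 24 tags, chr13:56309919-56310134, lay 9.02 kb to its right without Tbr2. No other peak of either list lay in the window, and the 199 kb to its right edge were empty of Tbr2 peaks. The Neurog1 and Neurog2 windows thus differed in number of sites. The fold change of Neurog2 peaks was 12.8 and 13.8 at Neurog1 and 13.1 to 21.7 at Neurog2. Their median tags were 24.5 over the 2 peaks at Neurog1 and 41 over the 5 at Neurog2.

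The Neurod1 window, chr2:79140000-79450000, had strong Tbr2 peaks with its Neurog2 peaks placed elsewhere. Its strongest Tbr2 peak, chr2:79300005-79301025, lay 5.51 kb right of the centre with 122 tags and a fold change of 27.5, the highest Tbr2 fold change of the 6 windows. The next, chr2:79239370-79240501, had 110 tags and a fold change of 25.7. Neither overlapped a Neurog2 peak, although both ranked among the top 10% of Tbr2 peaks by tags and by fold change.

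Neurog2 was listed at 2 places in the Neurod1 window. One peak, chr2:79296933-79297215, lay 2.07 kb from the centre with 36 tags and a fold change of 10.1, and 2789 bp of unlisted sequence separated it from the Tbr2 peak of 122 tags. The other, chr2:79219399-79219634, had 24 tags and lay inside a Tbr2 peak of 45 tags, the only shared site. The remaining 3 Tbr2 peaks of this window were weak or moderate, at 19, 30 and 44 tags.

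The Neurod2 window, chr11:98030000-98340000, had its Tbr2 peaks in its middle: all 8 lay in the central 155 kb, 3 of them within 25 kb of the centre. The strongest, chr11:98144398-98146223, was 1826 bp wide with 109 tags and a fold change of 20.5, and had no Neurog2 peak. A trio with 57, 41 and 55 tags spanned 16.0 kb at the centre, and the third of these, chr11:98195366-98196265, was shared, with 33 Neurog2 tags at a fold change of 14.47.

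The Neurod2 window had 2 shared sites, a number reached by 4.73% of windows. The other one was the weakest of the 11 shared sites by the p-value of its Neurog2 peak. There the Neurog2 peak chr11:98127221-98127416 had 21 tags, a p-value of 4.99e-07 and an FDR of 0.0751. Its Tbr2 peak had 44 tags, and another Tbr2 peak of 77 tags began within 100 bp of its end without Neurog2. The remaining Tbr2 peaks, right of the centre, had 26 and 30 tags. Other shared Neurog2 peaks with an FDR above 0.01 lay in the Neurog2, Neurog1 and Bhlhe22 windows. They had 18, 25 and 27 tags and FDRs of 0.0161, 0.0117 and 0.0166.

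The Neurod6 window, chr6:55480000-55780000, was the one most dominated by Tbr2. Its 11 Tbr2 peaks had from 23 to 103 tags, with a median of 40, and their median fold change was 8.11, the lowest of the windows with more than 1 Tbr2 peak and below the median of the whole list, 9.58. The peak with the most tags was chr6:55528998-55530758, with 103 tags at a fold change of 16.4. At the centre a peak of 75 tags, chr6:55630886-55631625, stood 2.61 kb from one of 27 tags. None of these had Neurog2.

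The single Neurog2 peak of the Neurod6 window lay near its right edge, 124 kb from the centre, at chr6:55754064-55754327, with 28 tags. It was inside a Tbr2 peak of 65 tags with the highest fold change of that window, 17.6. The 10 Tbr2 peaks without Neurog2 included 8 that were at least 100 kb from any Neurog2 midpoint.

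At Bhlhe22, chr3:17700000-18010000, binding fell into sets on either side of an empty stretch. On the left, 4 Tbr2 peaks with 30, 31, 74 and 42 tags lay within 41.6 kb, without Neurog2. The one of 74 tags, chr3:17762174-17762897, had a fold change of 27.2. The next Tbr2 peak was 189 kb further on, so the middle of this window held no peak of either list. Since the place of Bhlhe22 in its window is not known here and need not be the middle, this stretch says nothing of binding close to the gene.

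On the right of the Bhlhe22 window stood 2 shared sites, a number reached by 4.73% of windows. The one at chr3:17980683-17982764 had 223 Tbr2 tags, the most of all 41 members and rank 103 of 14539, over a width of 2082 bp, with a Neurog2 peak of 27 tags. The one at chr3:17953798-17954618 had 97 Tbr2 tags at a fold change of 22.4 and 43 Neurog2 tags. Their Neurog2 fold changes, 7.29 and 6.95, were the lowest of the 14 Neurog2 members, and 6.89% and 4.96% of the Neurog2 list had a fold change as low.

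**Figure D2:**
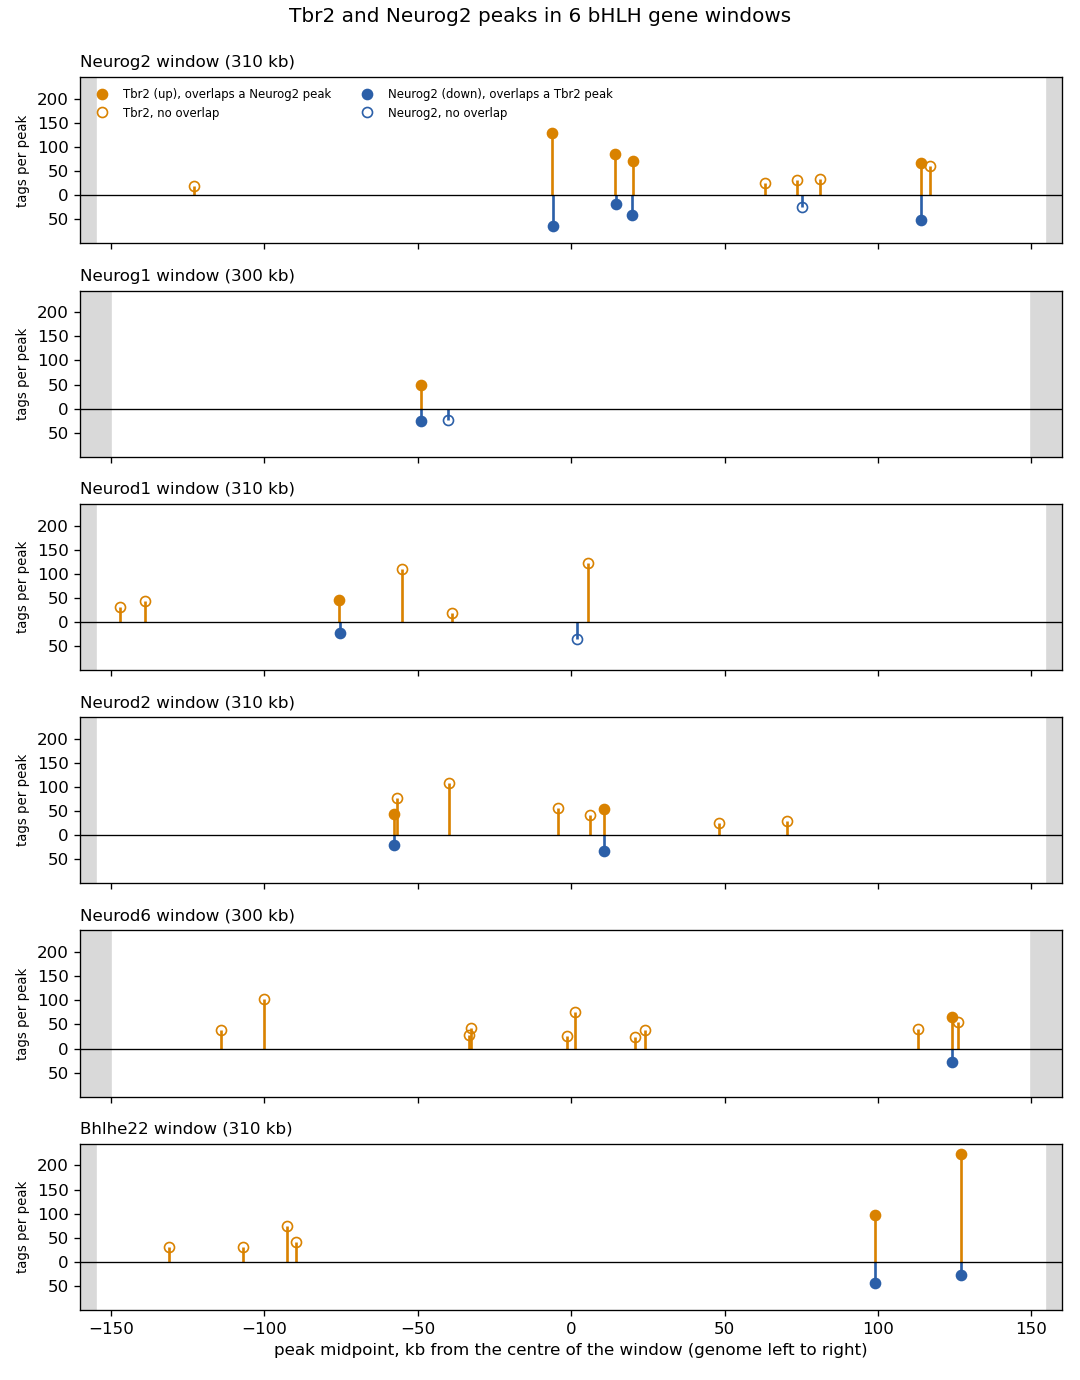
Peaks in the 6 windows, by distance of the midpoint from the window's centre in kb. Stems give tags per peak, upward for Tbr2 and downward for Neurog2, filled circles mark peaks that overlap a peak of the other factor and grey areas lie outside the window; the Neurog2 gene has 4 filled pairs, Neurod6 has 10 open Tbr2 circles, and the middle of the Bhlhe22 window is empty.

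Of the 14 Neurog2 peaks, 11 overlapped a Tbr2 peak by at least 1 bp, 78.6% (95% Wilson interval 52.4 to 92.4), near the 81.3% of the whole list. Of the 41 Tbr2 peaks, 11 overlapped a Neurog2 peak, 26.8% (15.7 to 41.9), where 14.0% of the whole list did (13.4 to 14.6). These intervals cover counting error over peaks only, as if neighbouring peaks were independent, and neither difference was tested. The Neurog2 gene gave 4 of the 11 shared sites, and without its window 7 of 32 Tbr2 peaks were shared, 21.9%.

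At each of the 11 shared sites the Neurog2 peak lay wholly inside the Tbr2 peak, as for 98.1% of all 2146 shared pairs. Midpoints were 35.5 to 241 bp apart, with a median of 88.5 bp, against 75.5 bp over all pairs. The 4 sites at the Neurog2 gene had the largest distances of the 11, at 174 to 241 bp. Of all pairs, 87.4% were as close as 241 bp or closer. The Tbr2 peaks of these 4 sites were 993 to 1501 bp wide, and distances were not scaled to width. At Neurog1, Neurod1, Neurod2, Neurod6 and Bhlhe22 the distances were 35.5 to 110.5 bp.

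The ratio of Neurog2 to Tbr2 tags was ordinary at most shared sites. It is a ratio of totals over peaks of unlike width, 160 to 583 bp for Neurog2 and 791 to 2082 bp for Tbr2. Neurog2 tags per Tbr2 tag had a median of 0.492 over the 11 sites and 0.459 over all pairs (interquartile range 0.287 to 0.711). The Bhlhe22 site of 223 Tbr2 tags had a ratio of 0.121, and 3.03% of all pairs had a ratio as low. Per 100 bp this site had 10.7 Tbr2 and 10.5 Neurog2 tags, against medians of 6.65 and 11.2 over the 11 sites. The site of 18 Neurog2 tags at the Neurog2 gene had 0.212. The highest ratio, 0.788, was at the rightmost shared site of the Neurog2 window, and 79.8% of all pairs were at or below it. The other 8 sites were between 0.431 and 0.600.

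**Figure D3:**
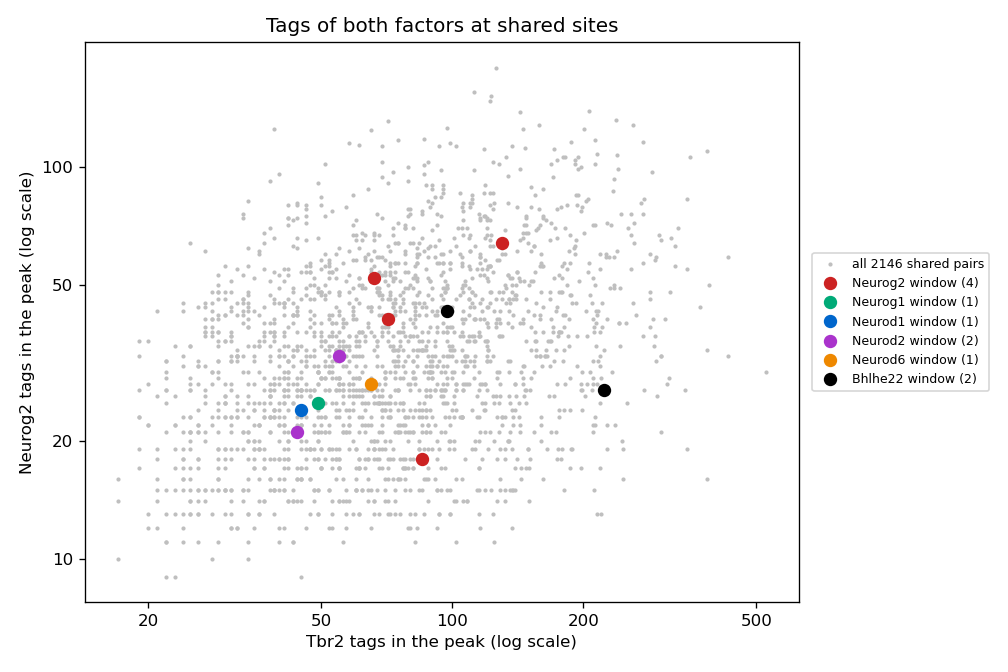
Tags of Neurog2 against tags of Tbr2 at shared sites, both on log scales. Grey points are all 2146 shared pairs and coloured points the 11 sites of the windows, most of which lie in the body of the cloud, while the Bhlhe22 site of 223 Tbr2 tags lies at its lower right.

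Tbr2 peaks in the windows were somewhat richer in tags than the list at large, and Neurog2 peaks were not. The 41 Tbr2 peaks had a median of 44 tags (range 19 to 223) against 38 in the whole list, and 28 of them were above that median. The strongest 10% of the list by tags, reached by 10.1% of it, held 7 of the 41: 1 at the Neurog2 gene, 2 at Neurod1, 1 at Neurod2, 1 at Neurod6 and 2 at Bhlhe22. By fold change 4 of 41 were in the strongest 10% (10.0% of the list), and the median fold change was 11 against 9.58. The Tbr2 peaks were also wider than the list, with a median of 770 bp against 703. By width, too, 7 of 41 were in the top 10% and 28 above the list's median. Per 100 bp they had a median of 5.89 tags against 5.44, and the part of width in the tags was not tested. The 14 Neurog2 peaks had a median of 27.5 tags (range 18 to 64) against 30 in the whole list, with 6 above that median, and a median fold change of 13.0 against 11.8.

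Shared Tbr2 peaks in the windows had a median of 66 tags and a fold change of 13.7, and unshared ones had medians of 39.5 and 9.98. The ranges overlapped: shared peaks had 44 to 223 tags and unshared ones 19 to 122. The whole list showed similar medians, 71 tags when shared and 36 when not. Shared Tbr2 peaks were also wider, with medians of 900 against 716 bp in the windows and 867 against 684 bp in the whole list. Per 100 bp the medians in the windows were 6.65 tags when shared and 5.72 when not. The part of width in these tags, or in meeting the overlap rule, was not tested. The Tbr2 peak with the most tags was unshared in the Neurod1, Neurod2 and Neurod6 windows, at 122, 109 and 103 tags, and shared in the Neurog2, Neurog1 and Bhlhe22 windows, at 130, 49 and 223.

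**Figure D4:**
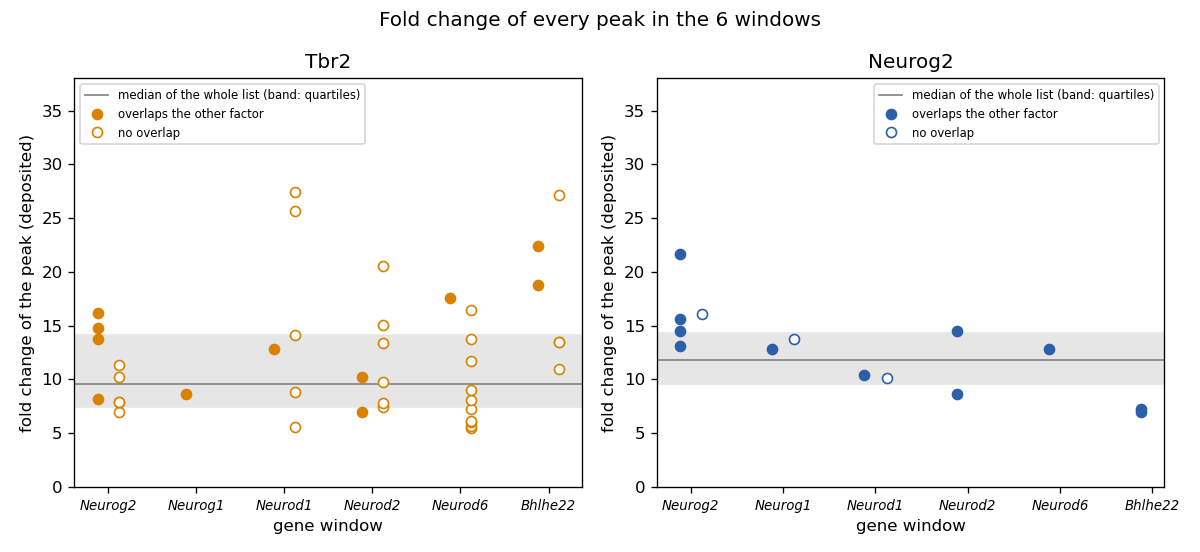
Deposited fold change of every Tbr2 (left) and Neurog2 (right) peak in each gene window. Filled circles overlap a peak of the other factor, open circles do not, and the line and band give the median and quartiles of the whole list; the Neurog2 peaks at the Neurog2 gene lie between 13.1 and 21.7 and both at Bhlhe22 near 7.

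Of the 14 Neurog2 peaks, 3 had no Tbr2 peak, 21.4% against 18.7% of the whole list, and each had a Tbr2 peak within 10 kb. Their distances to the nearest Tbr2 midpoint were 1.53 kb at the Neurog2 gene, 3.44 kb at Neurod1 and 9.02 kb at Neurog1. Of all 491 unshared Neurog2 peaks on chromosomes with Tbr2 peaks, 25.9% had one within 10 kb, and the median distance was 37.3 kb. The windows also held 3.72 times the autosomal number of Tbr2 peaks per Mb, and the part of this density in the short distances was not tested.

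Tbr2 peaks of the windows often had a Tbr2 neighbour, in windows with 3.72 times the autosomal number of Tbr2 peaks per Mb. The part of this density in the grouping was not tested. When peaks with gaps of up to 5 kb were joined, 18 of the 41, 43.9%, had at least 1 partner, against 21.2% of the whole list, and no group held more than 2. With gaps of up to 25 kb these were 36 of 41, 87.8%, against 48.8%, in groups of at most 4. The closest midpoints were 0.806 kb apart at Neurod6 and 0.960 kb apart at Neurod2. With gaps of up to 5 kb Neurod6 had 4 groups of 2, which held 8 of its 11 peaks.

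The distance of the outermost peaks from the window edges varied. The outermost Tbr2 peaks lay 7.88 to 199 kb inside an edge, and the next ones outside lay 12.9 to 628 kb beyond it, with 25 to 74 tags. The Neurog1 window, poor inside, had 5 Tbr2 peaks in its flanks of 150 kb on each side, and the Neurod2 window, rich inside, had 1 in flanks of 155 kb.

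Promoter sequences of the reference were examined for E-boxes, since the windows differ in Neurog2 binding and Neurog2 recognises this element. RefSeq sequences of GRCm38.p6 were matched by symbol for 5 of the 6 genes, and the 250 bases before the start of each gene were searched for CANNTG, a pattern that covers both strands at once. Of 32851 such promoter sequences in the table, 66.2% held at least 1. Those of Neurog2, whose window has the most Neurog2 peaks, and of Neurod1 and Neurod2 are shown to compare their E-boxes, with the E-boxes in capitals. Neurog2 is on the plus strand at chr3:127632886-127633135, Neurod1 on the minus strand at chr2:79456637-79456886 and Neurod2 on the minus strand at chr11:98329646-98329895, all in GRCm38.p6, whose positions cannot be set beside the mm9 peaks.
Neurog2: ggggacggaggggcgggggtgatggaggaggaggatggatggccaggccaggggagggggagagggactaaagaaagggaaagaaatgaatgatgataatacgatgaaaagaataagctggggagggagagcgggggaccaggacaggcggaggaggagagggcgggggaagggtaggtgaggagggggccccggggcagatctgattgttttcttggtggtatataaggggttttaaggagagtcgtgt
Neurod1: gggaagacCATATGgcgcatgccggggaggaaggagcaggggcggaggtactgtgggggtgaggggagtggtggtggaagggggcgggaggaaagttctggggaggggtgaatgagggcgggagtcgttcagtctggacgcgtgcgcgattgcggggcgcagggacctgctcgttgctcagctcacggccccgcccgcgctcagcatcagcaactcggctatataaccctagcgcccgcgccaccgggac
Neurod2: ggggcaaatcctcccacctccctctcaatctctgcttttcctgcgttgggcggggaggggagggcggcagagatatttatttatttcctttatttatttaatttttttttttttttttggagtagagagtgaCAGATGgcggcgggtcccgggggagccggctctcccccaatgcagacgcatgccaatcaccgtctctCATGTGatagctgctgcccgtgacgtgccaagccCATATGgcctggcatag

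No CANNTG was found in these 250 bases at Neurog2 or at Neurog1. Neurod1 held 1, CATATG, a form present in 3.46% of promoters. Neurod2 held 3, among them CATATG and CAGATG, of which the latter or its reverse complement CATCTG was in 14.4% of promoters. Neurod6 held 2 of other forms. GGTGTG or its reverse complement CACACC, a core of T-box elements, was found once at Neurod6 and not at the other 4, and in 16.3% of promoters. Whether a peak lies on any of these promoters was not tested, and no match says only that these letters are not in these bases.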

How the data were processed

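Tissue was fixed with 2 mM disuccinimidyl glutarate for 45 min and 1% formaldehyde for 10 min, per the labels' protocols. The submitters' processing notes name Bowtie 0.12.3, MACS 1.4 and the build mm9. For their settings and the control used, no source here gives a value. The peak lists were exported from GeneProf, per the file headers. For each peak the authors deposited a fold change, FDR, p-value and tag count as text in 1 field. The deposited score was 750 for every peak and was not used. The largest deposited p-value was 9.98e-06 for Tbr2 and 8.65e-07 for Neurog2.

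From these lists, peaks were assigned to windows by midpoint, called shared at an overlap of at least 1 bp, and ranked within their list (Python 3.11.15, pandas 2.3.3, scipy 1.17.1). A score of -10 times log10 of the p-value was used for limits. Shared Neurog2 peaks were paired with the highest-scoring Tbr2 peak they overlapped. Background windows tiled each of the 19 autosomes from position 1 without overlap, from the tile of the first peak to that of the last. Assembly gaps were not removed. The overlap step was tested on simulated data, where all 300 planted overlaps were recovered. Window counts were checked by a second count on the Tbr2 list itself. The genes and their windows were chosen with earlier results of these data known. The text names every Neurog2 peak, every shared site and the Tbr2 peak with most tags of each window; other named peaks were chosen after their values were seen. The alternatives changed the window, the limits and the overlap rule. The input library was not analysed here.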

Additional observations from a re-analysis of the deposited data

How the results depend on the processing

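Of the Neurog2 peaks in the windows 78.6% were shared, and this was between 70.0% and 85.7% when the windows, the score limit or the FDR limit changed. It fell to 28.6% (4 of 14) when the Tbr2 list was limited to the 2640 peaks with the lowest p-values, and the share of Tbr2 peaks on a Neurog2 peak was then 44.4% (4 of 9); over the whole lists these were 38.4% and 35.6%. Both shares were 0 under a reciprocal overlap of 50% (9.28% and 1.69% over the whole lists), a rule that a narrow peak inside a much wider one cannot meet. Under the changes of window, score and FDR the share of Tbr2 peaks, 26.8%, was between 18.9% and 29.2%. The lowest value, 7 of 37, was at an FDR of at most 0.01, where the whole lists were not counted. The 41 Tbr2 peaks became 24 in the central part of each window, 155 or 150 kb long, 69 in windows widened to 620 or 600 kb, 26 at a score of at least 100 and 9 in the shortened list. The 14 Neurog2 peaks became 9 without the Neurog2 gene window, an alternative added after seeing the data. In its central part the Bhlhe22 window, which may not be centred on the gene, held no peak. With background tiles moved by 155 or 150 kb, 1.90% had as many Tbr2 peaks as the Neurog2 gene window and 0.526% as many as Neurod6. Among tiles with at least 1 peak, 2.59% had as many as the Neurog2 gene window and 0.899% as many as Neurod6. Depth is unknown, so a site missing from the shorter Neurog2 list may have been below its limit. No paired analysis was possible because each factor had 1 library.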

Other observations

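Sequence directly outside the windows, which the rule did not use, was described in the same way. The flanks of Neurod6, 150 kb on each side, held 8 Tbr2 and 5 Neurog2 peaks, against 11 and 1 inside the window, which is equally long. The right flank held the Tbr2 peak with the second highest number of tags in the whole list, chr6:55870013-55871888, 91.0 kb from the edge, with 430 tags at a fold change of 62.8 and a shared Neurog2 peak of 59 tags. On the left a shared Neurog2 peak of 74 tags, chr6:55385698-55386185, stood 94.1 kb from the edge, with more tags than any of the 14 inside the windows.

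The flanks of the other windows held 0 or 1 Neurog2 peak each. Right of the Bhlhe22 window, 34.8 kb beyond its edge, a shared Tbr2 peak at chr3:18044310-18045381 had 132 tags at a fold change of 36.4, higher than any Tbr2 fold change inside the 6 windows, and its Neurog2 peak had 14 tags. Left of Neurod1, 147 kb beyond the edge, a Tbr2 peak of 143 tags, chr2:78992050-78993301, had no Neurog2 peak. These peaks were chosen after their values were seen.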
